A study of Mus musculus with 12 samples.

Results

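Collagen chain genes encode the alpha chains that wind in groups around each other into the collagens of the extracellular matrix. All annotated genes whose symbol names a collagen chain (Col, a type number, the letter a and a chain number) were taken from polyA+ RNA sequencing of mouse striatum after ischemic stroke. There were 44 such chains among the 54532 genes in the count files, on 15 chromosomes. All 44 passed the filter on low counts that left 19822 genes for testing. By type they were 11 fibrillar chains, 6 chains of type IV, 2 multiplexins, 3 chains of the hexagonal networks (types VIII and X), 6 chains of type VI, the type VII chain, 9 fibril-associated chains (FACIT), 4 transmembrane chains, and the chains of types XXVI and XXVIII.

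At 7 and at 14 days after the stroke, the study set wild-type (WT) animals against animals labelled cGAS-KO or STING-KO. Every group shared the C57BL/6J strain and the stroke, and there was no uninjured group. Per the labels, CRISPR-Cas9 made the Cgas and Sting deficiencies, and no promoter or cell type is named. Each of the 6 groups held 2 libraries, 12 in all, with no mouse named for any library, so the p-values below measure the spread between libraries, which may be technical. The labels also do not give the animals' age or sex, the kind of occlusion, or the distance of the sampled tissue from the infarct.

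Fibrillar collagens (types I, II, III, V, XI, XXIV and XXVII) form the tension-bearing fibres of scars, skin and bone, while type IV builds the sheet of the basement membrane under endothelium and around pericytes and astrocyte endfeet. Healthy brain tissue holds little fibrillar collagen outside the meninges and the walls of larger vessels. After injury to the central nervous system, fibroblasts and pericyte-lineage cells around vessels and meninges are known to lay down type I and III collagen in a fibrotic scar.

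Library totals ran from 15956242 to 22126213 counts. Levels are counts-per-million (CPM) of the normalised library total, on which 3 counts equal 0.133 to 0.195 CPM. The targeted transcripts did not track the genotype labels at both days. Cgas, the cytosolic DNA sensor, had 3.25 and 2.97 CPM in 7-day WT, 5.55 and 5.66 in 7-day cGAS-KO, 11.2 and 12.6 in 7-day STING-KO, 12.6 and 7.68 in 14-day WT, 4.09 and 6.15 in 14-day cGAS-KO, and 4.50 and 3.58 CPM in 14-day STING-KO libraries. The lowest Cgas levels were in 7-day WT. Tmem173, the gene of STING, had 2.80 and 2.71 CPM in 7-day WT, 28.7 and 30.3 in 7-day cGAS-KO, 20.9 and 23.8 in 7-day STING-KO, 22.3 and 20.8 in 14-day WT, 18.4 and 18.1 in 14-day cGAS-KO, and 2.40 and 5.21 CPM in 14-day STING-KO libraries. It was as high in the 7-day libraries labelled STING-KO as in 14-day WT. All directions between genotypes below are therefore directions between libraries labelled so. Markers of striatal projection neurons (8 genes, among them Drd1 and Ppp1r1b) summed to 198 and 194 CPM in 7-day WT, 125 and 391.6 in 7-day cGAS-KO, 167 and 434 in 7-day STING-KO, 927 and 697 in 14-day WT, 1504 and 2522 in 14-day cGAS-KO, and 5351 and 5907 CPM in 14-day STING-KO libraries. These markers of the labelled tissue were thus low in all 7-day libraries and highest in the 14-day STING-KO libraries. WT at 7 days and STING-KO at 14 days stood apart from the rest. No comparison against either group can be given without its libraries. Between genotypes, only the 7-day cGAS-KO against STING-KO and the 14-day cGAS-KO against WT comparisons have neither group on a side. Their tests still use an estimate of the spread to which the 7-day WT and 14-day STING-KO libraries contribute.

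Promoter windows around the start sites were available for 35 of the 44 chains (38 windows, RefSeq, build GRCm38.p6). Shown here, each on its gene's own strand, are windows of Col1a2 and Col3a1, of type I and III collagen, of Col10a1, which ranged from 0 counts to 501 CPM, of Col4a1 and Col4a2, which face each other across a shared start region, of Col6a1, which led the 14-day libraries, and of Col25a1, which moved opposite to most chains. They lie at chr6:4505368-4505667 (Col1a2, plus strand), chr1:45311288-45311587 (Col3a1, plus), chr10:34389731-34390030 (Col10a1, plus), chr8:11312777-11313076 (Col4a1, minus), chr8:11312555-11312854 (Col4a2, plus), chr10:76725995-76726294 (Col6a1, minus) and chr3:130180595-130180894 (Col25a1, plus). Capitals mark matches, on either strand, to 5 motifs that were searched: the TATA box (TATAAA), the CCAAT box (CCAAT), the GC box (GGGCGG), the AP-1 site (TGANTCA) and a partial interferon response motif (GAAANNGAA).
Col1a2: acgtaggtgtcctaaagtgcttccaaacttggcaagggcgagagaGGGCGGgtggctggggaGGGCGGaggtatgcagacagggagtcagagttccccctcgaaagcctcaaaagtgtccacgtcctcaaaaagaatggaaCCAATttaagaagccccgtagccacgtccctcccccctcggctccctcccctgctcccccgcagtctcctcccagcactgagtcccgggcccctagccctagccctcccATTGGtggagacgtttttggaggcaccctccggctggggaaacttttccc
Col3a1: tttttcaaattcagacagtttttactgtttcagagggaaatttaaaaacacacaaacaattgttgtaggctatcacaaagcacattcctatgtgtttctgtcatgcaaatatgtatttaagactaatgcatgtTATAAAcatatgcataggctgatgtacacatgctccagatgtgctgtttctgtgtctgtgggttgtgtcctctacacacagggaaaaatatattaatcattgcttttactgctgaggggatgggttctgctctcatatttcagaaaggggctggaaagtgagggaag
Col10a1: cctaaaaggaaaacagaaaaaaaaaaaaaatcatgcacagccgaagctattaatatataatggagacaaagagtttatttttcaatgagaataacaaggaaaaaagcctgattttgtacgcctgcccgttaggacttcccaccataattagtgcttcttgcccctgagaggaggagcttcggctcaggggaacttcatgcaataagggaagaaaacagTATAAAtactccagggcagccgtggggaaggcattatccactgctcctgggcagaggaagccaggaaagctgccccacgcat
Col4a1: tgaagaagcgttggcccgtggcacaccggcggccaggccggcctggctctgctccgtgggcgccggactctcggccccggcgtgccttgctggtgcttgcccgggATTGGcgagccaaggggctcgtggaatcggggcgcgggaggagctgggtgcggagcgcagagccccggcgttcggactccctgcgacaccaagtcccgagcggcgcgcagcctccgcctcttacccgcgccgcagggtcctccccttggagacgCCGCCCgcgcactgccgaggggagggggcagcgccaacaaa
Col4a2: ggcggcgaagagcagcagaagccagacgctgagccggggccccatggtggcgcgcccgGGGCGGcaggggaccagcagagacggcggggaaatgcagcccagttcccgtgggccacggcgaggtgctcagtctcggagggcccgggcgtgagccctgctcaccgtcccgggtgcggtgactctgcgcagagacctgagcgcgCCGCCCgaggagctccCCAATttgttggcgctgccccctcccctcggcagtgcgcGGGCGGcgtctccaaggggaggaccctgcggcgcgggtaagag
Col6a1: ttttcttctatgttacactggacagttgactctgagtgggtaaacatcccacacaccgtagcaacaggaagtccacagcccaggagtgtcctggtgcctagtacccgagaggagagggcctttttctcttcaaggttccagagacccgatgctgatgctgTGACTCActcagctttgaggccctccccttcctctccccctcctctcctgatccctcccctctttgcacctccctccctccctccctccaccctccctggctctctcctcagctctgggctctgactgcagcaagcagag
Col25a1: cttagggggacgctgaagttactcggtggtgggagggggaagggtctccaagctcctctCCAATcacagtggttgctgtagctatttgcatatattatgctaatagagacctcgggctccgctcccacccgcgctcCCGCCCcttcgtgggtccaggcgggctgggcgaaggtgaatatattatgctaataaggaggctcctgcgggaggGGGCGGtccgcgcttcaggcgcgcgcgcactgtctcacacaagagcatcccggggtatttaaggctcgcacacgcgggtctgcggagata

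The Col10a1 window held a TATA box that begins 32 bases before the start site, and the Col3a1 window held one that begins 117 bases before it. The Col1a2 window held 2 CCAAT boxes and 2 GC boxes, and the Col6a1 window held an AP-1 site. The Col4a1 and Col4a2 windows overlap, since the start sites of these genes lie 21 bases apart on chromosome 8 (11312826, minus strand, and 11312805, plus strand) and their first exons share 22 bases. The same head-to-head order was found for Col4a3 and Col4a4 on chromosome 1 (start sites 72 bases apart) and for Col4a5 and Col4a6 on chromosome X (1309 bases apart). Over the 38 windows, 60.5% held a GC box against 35.7% of all 32851 promoter windows of the same length, 34.2% held a CCAAT box against 37.4%, and 13.2% held a TATA box against 13.6%. The AP-1 site was in 2.63% of the chains' windows and 7.81% of all, and the interferon response motif in 7.89% and 8.56%. A match describes the letters of these windows only.

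All 44 chains together reached 708 and 775 CPM in 7-day WT, 7682 and 5679 in 7-day cGAS-KO, 4858 and 3511 in 7-day STING-KO, 795 and 1178 in 14-day WT, 1096 and 978 in 14-day cGAS-KO, and 560.2 and 662 CPM in 14-day STING-KO libraries. The 4 libraries of the 7-day groups labelled cGAS-KO and STING-KO were therefore the highest, with no overlap with the other 8. As a share of all counts, collagen chains ran from 0.0549% (14-day STING-KO, replicate 1) to 0.790% (7-day cGAS-KO, replicate 1). Col1a1, Col1a2 and Col3a1 together made up 50.6% of collagen CPM in that highest library and 2.51% in the lowest. Chain by chain, 25 of the 44 were higher in each of these 4 libraries than in any of the other 8, and the other 19 overlapped with them. The share of all genes with such a split was not computed, so this count has no background beside it. The 4 libraries were also singled out by the summed level of the same chains, so the count is no separate support for it.

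**Figure D1:**
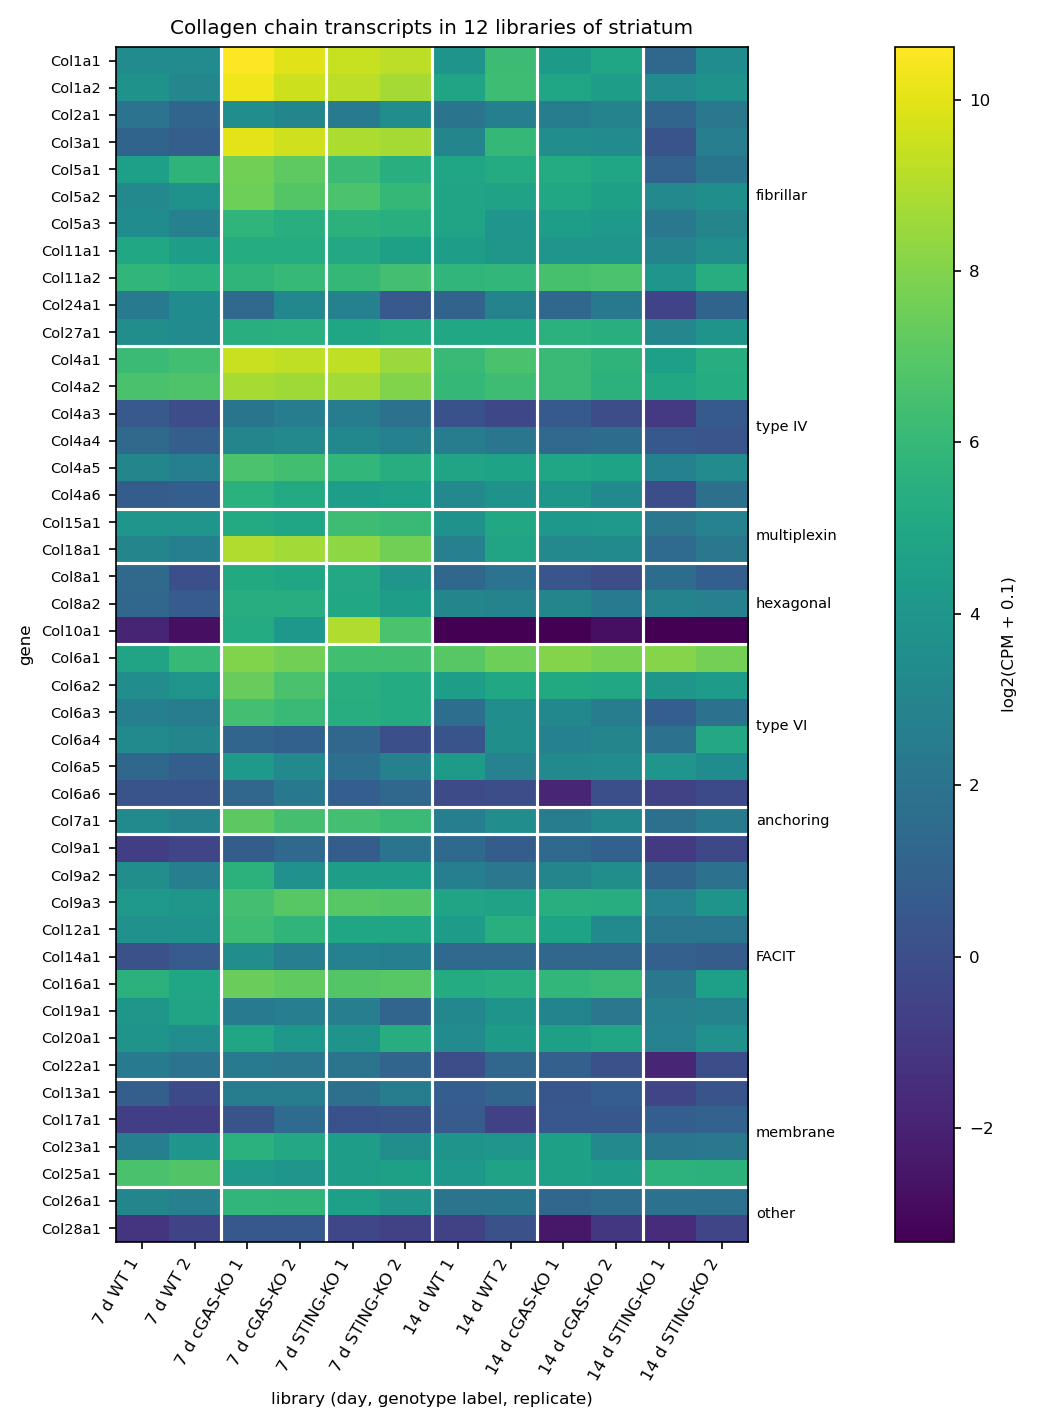
Level of each of the 44 collagen chains (rows, grouped by type) in each of the 12 libraries (columns, by day, genotype label and replicate), as log2(CPM + 0.1). The 4 columns of 7-day cGAS-KO and STING-KO are brightest for Col1a1, Col1a2, Col3a1, Col4a1, Col4a2 and Col18a1, Col10a1 is bright only there, and Col25a1 is brightest in 7-day WT.

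Per kilobase of exon, so that chains of different length can be compared, Col1a1 was the most abundant chain over all 12 libraries (mean 51.5 CPM per kb), followed by Col6a1 (37.8), Col4a1 (31.4), Col4a2 (25.7) and Col3a1 (23.9). The order differed between groups. Col4a2 led in 7-day WT (15.8 ± 1.42 CPM per kb, SD, n = 2), Col1a1 led in 7-day cGAS-KO (198 ± 57.5) and 7-day STING-KO (97.8 ± 11.1), and Col6a1 led in 14-day WT (35.7 ± 9.58), 14-day cGAS-KO (54.6 ± 5.59) and 14-day STING-KO (55.4 ± 10.5). In 7-day STING-KO the second chain was Col10a1, at 96.2 ± 90.5 CPM per kb, which its spread does not separate from Col1a1 or from Col4a1 (65.9 ± 23.2). These values divide by the length of all annotated exons. By the longest transcript instead, the order over the 12 libraries was Col1a1 (57.0 CPM per kb), Col1a2 (50.6, against 21.8 by all exons), Col3a1 (42.2), Col6a1 (40.4) and Col4a1 (35.4).

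Because the RNA came from whole tissue, a lower level can mean fewer cells of a type or less RNA per cell, and these cannot be told apart. At 7 days markers of collagen-making cells were higher where the collagens were. The summed level of 8 fibroblast markers (Dcn, Lum, Dpt, Pi16, Mfap5, Fbln1, Pdgfra and Serpinf1) was 105 and 91.7 CPM in 7-day WT, 965 and 559 in 7-day cGAS-KO, 345 and 332 in 7-day STING-KO, 124 and 229.5 in 14-day WT, 125 and 112 in 14-day cGAS-KO, and 122 and 109.9 CPM in 14-day STING-KO libraries. Of the 8, 7 were higher in each 7-day labelled knockout than in 7-day WT. Of all genes, 27.8% were called higher in 7-day cGAS-KO and 26.3% in 7-day STING-KO. Dpt and Mfap5 had 0 counts in at least 1 library and no marker in all of them. At 14 days the fibroblast sums of cGAS-KO and STING-KO were alike. Such a sum follows its most abundant members and does not count fibroblasts. Dcn averaged 14.3 CPM in 14-day cGAS-KO, 12.5 CPM in 14-day STING-KO and 43.9 CPM in 14-day WT. Most of the cGAS-KO and STING-KO sums thus came from the other markers. Col1a1, Col1a2 and Col3a1 together had 59.5 and 62.1 CPM in the 14-day cGAS-KO libraries and 14.0 and 30.3 CPM in the 14-day STING-KO libraries. None of these chains was called between those groups. The 8 arachnoid and pial markers summed to 41.2 and 23.7 CPM in 7-day WT, 527 and 209.8 CPM in 7-day cGAS-KO and 135 and 92.2 CPM in 7-day STING-KO, and to 13.8 to 38.5 CPM in the 14-day libraries. Both lists were thus highest in 7-day cGAS-KO, the group with the highest type I and III collagen. The 8 pericyte and smooth muscle markers ran from 189 to 919 CPM, the 8 endothelial markers from 297 to 1073 CPM, and both lists were lowest in 7-day WT. In 14-day STING-KO the pericyte and smooth muscle sums were 225 and 298 CPM, beside 311 and 270.0 CPM in 14-day WT. The 8 macrophage and microglia markers summed to 174 and 146 CPM in 7-day WT and 231 and 489 CPM in 14-day STING-KO, the groups with the least collagen, against 1208 to 4486 CPM elsewhere. Choroid plexus markers reached 201 to 405 CPM in the 7-day labelled knockouts and 17.9 to 100.3 CPM elsewhere. The 5 erythrocyte markers summed to 867 and 707 CPM in 7-day cGAS-KO and to 42.1 to 344 CPM elsewhere. Markers of other brain tissue and of glia also set the 7-day WT libraries apart. The 6 cortical and hippocampal neuron markers summed to 5224 and 6069.6 CPM in 7-day WT and to 551 to 2063 CPM elsewhere. The 6 thalamic neuron markers summed to 428 and 302 CPM in 7-day WT and to 59.2 to 241 CPM elsewhere, with Gbx2 and Shox2 at 0 counts in at least 1 library. The 6 astrocyte markers summed to 2279 and 2045 CPM in 7-day WT and 2058 and 2289.5 CPM in 14-day STING-KO, against 4262 to 8307 CPM elsewhere. The 6 oligodendrocyte lineage markers summed to 5983 and 4214 CPM and 6273 and 6924 CPM in the same groups, against 9204 to 24985 CPM elsewhere. The part of any of these cells in the collagen differences was not tested.

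**Figure D2:**
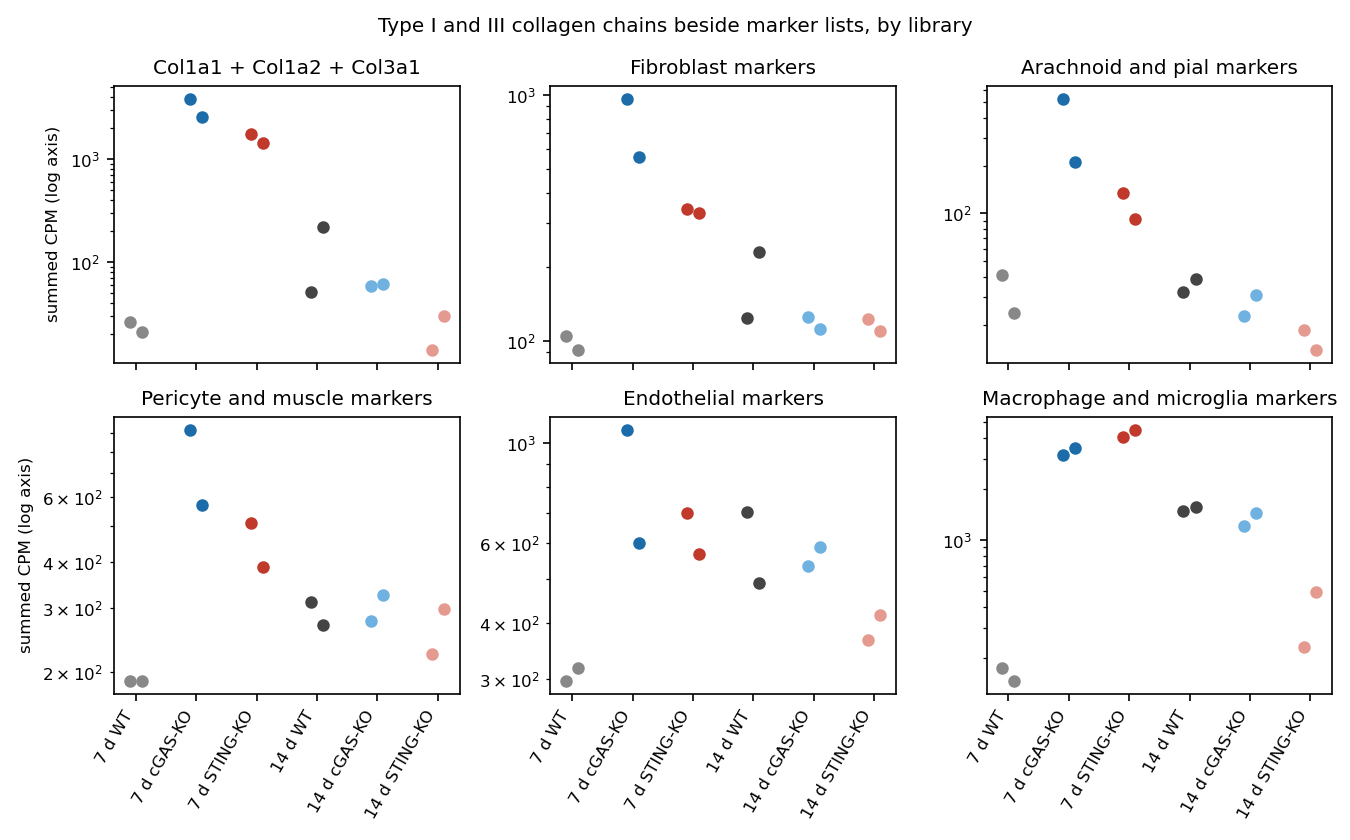
Summed CPM (log axis) of Col1a1, Col1a2 and Col3a1 and of 5 marker lists, 1 point per library, by day and genotype label. The 4 points of 7-day cGAS-KO and STING-KO lie above the other 8 for the collagens, the fibroblast, arachnoid and pial, pericyte and muscle, and macrophage and microglia markers, while the endothelial markers overlap.

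Among the fibrillar chains, those of types I and III had the widest range. Col1a1 (chromosome 11, 94936224 to 94953042, plus strand; mm10), the chain present in double copy in type I collagen, had 10.5 and 10.5 CPM in 7-day WT, 1566 and 1032 in 7-day cGAS-KO, 694 and 590.3 in 7-day STING-KO, 14.7 and 75.8 in 14-day WT, 19.4 and 29.3 in 14-day cGAS-KO, and 2.52 and 10.8 CPM in 14-day STING-KO libraries. Col1a2 (chromosome 6), its partner chain, had 13.7 and 8.59 CPM in 7-day WT, 1286 and 746 in 7-day cGAS-KO, 588 and 424 in 7-day STING-KO, 28.1 and 79.0 in 14-day WT, 28.7 and 22.2 in 14-day cGAS-KO, and 10.4 and 13.5 CPM in 14-day STING-KO libraries. Col3a1 (chromosome 1), whose homotrimers form the type III collagen of vessel walls and early scar, had 2.19 and 1.79 CPM in 7-day WT, 1037 and 780.0 in 7-day cGAS-KO, 472 and 425 in 7-day STING-KO, 8.12 and 63.2 in 14-day WT, 11.4 and 10.6 in 14-day cGAS-KO, and 1.14 and 6.06 CPM in 14-day STING-KO libraries. All 3 chains were highest in 7-day cGAS-KO, next in 7-day STING-KO with no overlap, and at most 79.0 CPM in any other library, that being the second 14-day WT library. This library stood above its partner for all 3 chains, 63.2 against 8.12 CPM for Col3a1.

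The chains of type V, which nucleate and thin type I fibrils, followed with smaller ranges. Col5a1 had 23.6 and 53.7 CPM in 7-day WT, 204 and 143 in 7-day cGAS-KO, 72.3 and 44.4 in 7-day STING-KO, 28.7 and 37.6 in 14-day WT, 38.2 and 29.5 in 14-day cGAS-KO, and 1.98 and 4.17 CPM in 14-day STING-KO libraries. Its 7-day STING-KO libraries overlapped with 7-day WT, and its 14-day STING-KO libraries were the lowest of all. Col5a2 had 9.37 and 13.6 CPM in 7-day WT, 182 and 118 in 7-day cGAS-KO, 102 and 62.8 in 7-day STING-KO, 27.6 and 26.0 in 14-day WT, 32.1 and 24.1 in 14-day cGAS-KO, and 9.18 and 12.1 CPM in 14-day STING-KO libraries, and here each 7-day labelled knockout library stood above every other library. Col5a3 ran from 4.74 CPM in a 14-day STING-KO library to 56.3 CPM in a 7-day cGAS-KO library. The chains of types II and XI, known from cartilage, had narrower ranges, with Col11a1 between 7.44 and 39.3 CPM, Col11a2 between 15.8 and 102 CPM and Col2a1 between 2.22 and 11.3 CPM. Col27a1, a cartilage fibril chain, was lowest in the 14-day STING-KO and 7-day WT libraries (8.76 to 14.9 CPM) and ran from 30.3 to 47.9 CPM in the other 8. Col24a1 stayed below 11 CPM in each library.

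Type IV chains build the network of the basement membrane. Col4a1 had 72.8 and 85.4 CPM in 7-day WT, 697 and 623 in 7-day cGAS-KO, 614 and 369.7 in 7-day STING-KO, 66.4 and 96.7 in 14-day WT, 68.8 and 52.5 in 14-day cGAS-KO, and 23.1 and 41.2 CPM in 14-day STING-KO libraries. Its partner Col4a2, which pairs with it in nearly all basement membranes, had 98.1 and 111 CPM in 7-day WT, 448 and 389.9 in 7-day cGAS-KO, 417 and 254 in 7-day STING-KO, 62.0 and 78.9 in 14-day WT, 66.6 and 49.3 in 14-day cGAS-KO, and 31.7 and 39.7 CPM in 14-day STING-KO libraries. Both were higher in each 7-day labelled knockout library than in any other library, and 7-day WT stood above all 14-day libraries for Col4a2. Col4a5 and Col4a6, chains of specialised basement membranes such as that of smooth muscle, reached 102 and 84.9 CPM and 47.9 and 36.6 CPM in 7-day cGAS-KO. They were lowest in 7-day WT, at 8.25 and 6.34 CPM and 1.63 and 1.69 CPM, and in 14-day STING-KO, at 6.90 and 10.6 CPM and 0.9 and 3.45 CPM. Col4a3 and Col4a4, known from the kidney's filtration barrier, stayed below 10 CPM in all libraries. Col4a3 shares 5.65% of its exon bases with a transcript on the opposite strand, and whether reads were counted by strand is not given, so its counts are uncertain.

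The multiplexins XV and XVIII sit at the outer face of basement membranes, and the end of type XVIII is the fragment endostatin, an inhibitor of vessel growth. Col18a1 had 7.91 and 6.39 CPM in 7-day WT, 496 and 412 in 7-day cGAS-KO, 306 and 199.8 in 7-day STING-KO, 6.54 and 28.3 in 14-day WT, 9.39 and 9.70 in 14-day cGAS-KO, and 2.88 and 4.75 CPM in 14-day STING-KO libraries, and its 7-day labelled knockout libraries lay far above all others. Col15a1 had 15.99 and 15.03 CPM in 7-day WT, 36.4 and 29.3 in 7-day cGAS-KO, 77.2 and 67.7 in 7-day STING-KO, 14.0 and 31.6 in 14-day WT, 17.4 and 18.1 in 14-day cGAS-KO, and 4.56 and 7.16 CPM in 14-day STING-KO libraries. Unlike Col18a1 it was higher in 7-day STING-KO than in 7-day cGAS-KO, with no overlap, and the second 14-day WT library reached the range of 7-day cGAS-KO.

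Of the hexagonal network chains, Col8a1 and Col8a2 form the type VIII collagen of vessel walls and Col10a1 the type X collagen of hypertrophic growth-plate cartilage. Col8a2 had 2.30 and 1.53 CPM in 7-day WT, 41.0 and 41.7 in 7-day cGAS-KO, 33.3 and 21.5 in 7-day STING-KO, 8.47 and 7.35 in 14-day WT, 8.23 and 5.39 in 14-day cGAS-KO, and 7.32 and 6.58 CPM in 14-day STING-KO libraries, with the 7-day labelled knockouts above all others. Col8a1 ran from 15.04 to 34.9 CPM in those 4 libraries and from 0.899 to 3.79 CPM in the other 8. Col10a1 (chromosome 10, 34389981 to 34397085, plus strand; mm10) had 8739 and 1904 counts (501 and 100.8 CPM) in 7-day STING-KO, 639 and 339 counts (38.5 and 17.4 CPM) in 7-day cGAS-KO and 3 and 1 counts in 7-day WT. At 14 days it had 0 counts in 5 libraries and 1 count in the sixth, a cGAS-KO library, where 3 counts set the limit at 0.133 to 0.195 CPM. The ratio of 7-day STING-KO to 7-day WT was 2739 (exact 95% interval 1070 to 10056, counting error only), and that of 7-day cGAS-KO to 7-day WT was 254 (98.8 to 933). The 2 STING-KO libraries lay far apart, both above the cGAS-KO libraries. Col7a1, the anchoring fibril chain of skin, had 9.65 and 7.31 CPM in 7-day WT, 137 and 89.8 in 7-day cGAS-KO, 86.7 and 72.0 in 7-day STING-KO, 6.25 and 11.4 in 14-day WT, 5.96 and 9.13 in 14-day cGAS-KO, and 3.42 and 5.53 CPM in 14-day STING-KO libraries, so that it too was highest in the 7-day labelled knockouts.

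Type VI collagen, the beaded microfilament network around cells, departed from this order at 14 days. Col6a1 had 28.0 and 64.7 CPM in 7-day WT, 253 and 197 in 7-day cGAS-KO, 84.4 and 83.7 in 7-day STING-KO, 127 and 186 in 14-day WT, 257 and 222 in 14-day cGAS-KO, and 275 and 210.2 CPM in 14-day STING-KO libraries. It was lowest in 7-day WT and as high in 14-day cGAS-KO and STING-KO as in 7-day cGAS-KO. Neither partner chain was as high at 14 days as in 7-day cGAS-KO. Col6a2 had 11.1 and 15.5 CPM in 7-day WT, 163 and 98.8 in 7-day cGAS-KO, 43.4 and 38.6 in 7-day STING-KO, 22.02 and 32.2 in 14-day WT, 35.6 and 31.2 in 14-day cGAS-KO, and 16.4 and 19.7 CPM in 14-day STING-KO libraries. Col6a3 had 6.45 and 5.62 CPM in 7-day WT, 88.9 and 69.2 in 7-day cGAS-KO, 41.5 and 38.2 in 7-day STING-KO, 3.15 and 11.1 in 14-day WT, 8.94 and 5.91 in 14-day cGAS-KO, and 1.68 and 3.52 CPM in 14-day STING-KO libraries. Both were highest in 7-day cGAS-KO and next in 7-day STING-KO. At 14 days Col6a3 was low, while Col6a2 was above both 7-day WT libraries in every library and reached 35.6 CPM in cGAS-KO. Col6a4 was at most 2.29 CPM in the 7-day labelled knockouts and ran from 1.11 to 34.0 CPM elsewhere, the highest value being the second 14-day STING-KO library against 3.54 CPM in its partner. Col6a5 had 2.41 and 1.74 CPM in 7-day WT, 17.5 and 9.67 in 7-day cGAS-KO, 3.33 and 6.89 in 7-day STING-KO, 19.0 and 7.02 in 14-day WT, 10.1 and 10.8 in 14-day cGAS-KO, and 15.4 and 10.9 CPM in 14-day STING-KO libraries, and Col6a6 stayed below 5 CPM in all of them.

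FACIT chains attach to the surface of fibrils. Col16a1 ran from 4.74 and 22.9 CPM in 14-day STING-KO to 181 and 149 CPM in 7-day cGAS-KO. Col12a1, which binds type I fibrils, had 13.3 and 13.5 CPM in 7-day WT, 79.3 and 54.8 in 7-day cGAS-KO, 29.4 and 29.5 in 7-day STING-KO, 20.7 and 44.1 in 14-day WT, 26.7 and 9.94 in 14-day cGAS-KO, and 4.32 and 4.30 CPM in 14-day STING-KO libraries, with 14-day STING-KO the lowest. Col9a3, of cartilage type IX collagen, ran from 7.26 to 129 CPM with 7-day STING-KO and cGAS-KO highest, and shares 6.07% of its exon bases with Tcfl5 on the opposite strand. Col9a2 ran from 2.16 to 50.01 CPM, Col20a1 from 7.02 to 41.5 CPM and Col14a1 from 1.01 to 11.8 CPM, while Col9a1 and Col22a1 stayed below 6 CPM. Col19a1, which neurons make and which takes part in synapse formation in mice, went the other way. It had 16.5 and 28.0 CPM in 7-day WT, 5.55 and 6.02 in 7-day cGAS-KO, 6.20 and 2.22 in 7-day STING-KO, 8.88 and 14.5 in 14-day WT, 7.83 and 4.45 in 14-day cGAS-KO, and 6.72 and 7.42 CPM in 14-day STING-KO libraries and was highest in 7-day WT.

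Among the transmembrane chains Col25a1, a collagen of neurons whose shed part binds amyloid fibrils, had 97.4 and 113 CPM in 7-day WT, 17.7 and 16.2 in 7-day cGAS-KO, 21.97 and 24.3 in 7-day STING-KO, 17.2 and 26.0 in 14-day WT, 24.3 and 19.7 in 14-day cGAS-KO, and 52.2 and 49.1 CPM in 14-day STING-KO libraries. It was highest in 7-day WT, next in 14-day STING-KO, and at most 26.0 CPM elsewhere. Pan-neuronal markers (6 genes) summed to 4883 and 5112 CPM in 7-day WT, 946 and 1194 in 7-day cGAS-KO, 1553 and 1113 in 7-day STING-KO, 1399 and 1864 in 14-day WT, 1650.3 and 1509.9 in 14-day cGAS-KO, and 3219 and 3209.8 CPM in 14-day STING-KO libraries, also highest in 7-day WT and next in 14-day STING-KO, and their part in the level of Col25a1 was not tested. Col13a1 and Col17a1 stayed below 6 CPM, and Col23a1 ran from 4.32 to 46.9 CPM. Col26a1 had 8.36 and 6.49 CPM in 7-day WT, 56.9 and 55.3 in 7-day cGAS-KO, 23.2 and 15.04 in 7-day STING-KO, 4.03 and 4.23 in 14-day WT, 2.31 and 3.03 in 14-day cGAS-KO, and 3.66 and 3.71 CPM in 14-day STING-KO libraries, highest in 7-day cGAS-KO, and Col28a1 stayed below 1.5 CPM.

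**Figure D3:**
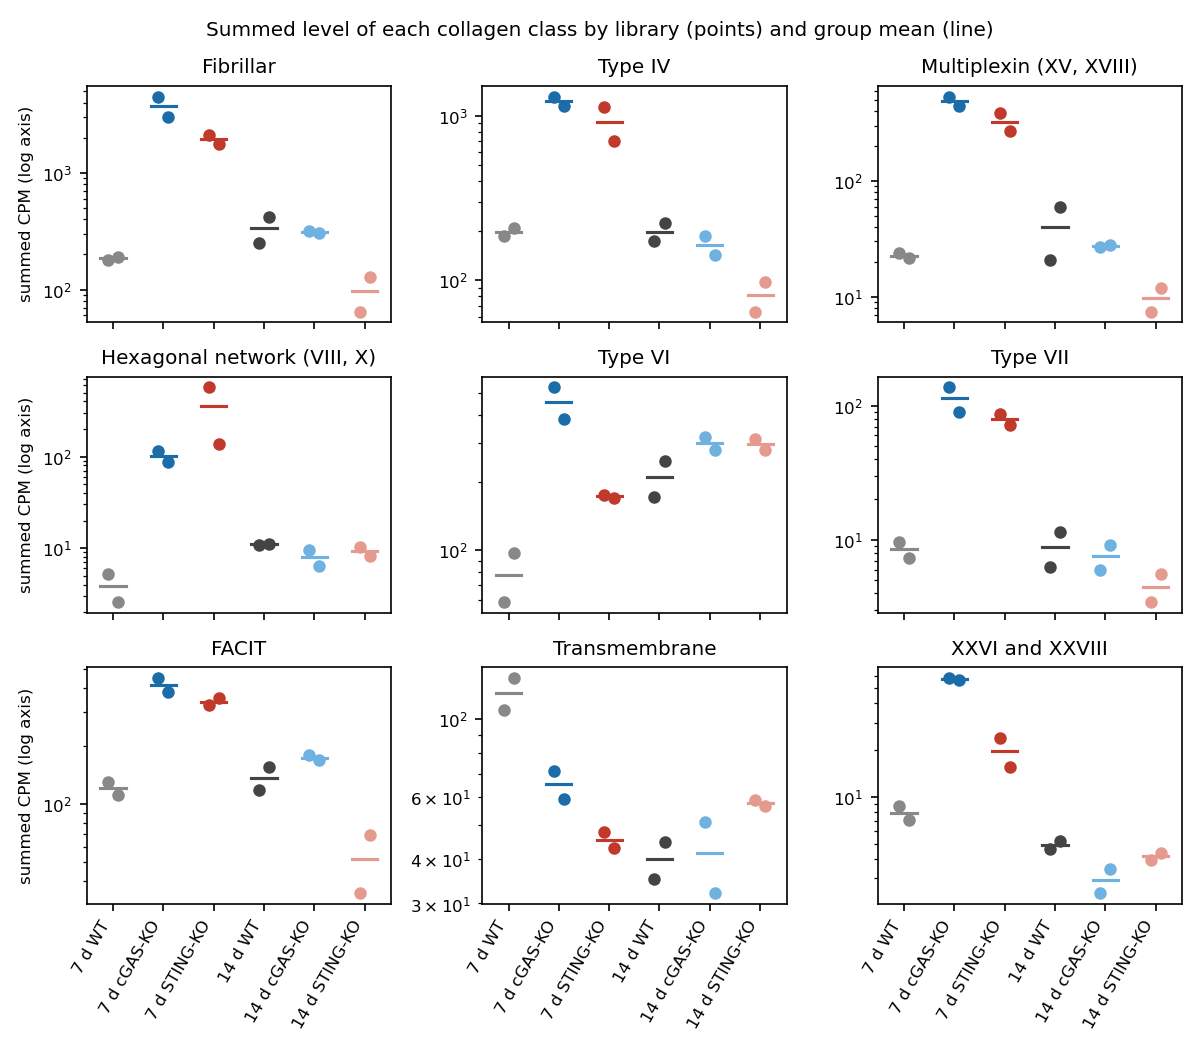
Summed CPM (log axis) of each collagen type, 1 point per library with a line at the group mean, by day and genotype label. In 7 of the 9 panels every 7-day cGAS-KO and STING-KO point lies above every other point, while type VI overlaps between 14-day and 7-day labelled knockouts, and the transmembrane chains are highest in 7-day WT.

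At 7 days most collagen chains were higher in the labelled knockouts than in WT. In cGAS-KO 36 of 44 chains were higher and 2 lower, against 27.8% and 22.4% of all 19822 genes. In STING-KO 29 were higher and 2 lower, against 26.3% and 22.6% of all genes. The median log2 change over the chains was 2.17 in cGAS-KO and 1.66 in STING-KO, beside 0.04 and 0.03 over all genes. Both comparisons use the same 2 WT libraries. All 6 type IV chains, all 3 hexagonal network chains, both multiplexins and Col7a1 were higher in both. Fibrillar chains were higher in 8 of 11 cases in cGAS-KO and 7 of 11 in STING-KO, type VI chains in 5 and 3 of 6, and FACIT chains in 6 and 5 of 9.

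Beside Col10a1, the largest rises were in type III and type I collagen. The log2 change of Col3a1 was 8.83 ± 0.96 in cGAS-KO (edgeR adjusted p = 2.22e-05) and 7.82 ± 0.93 in STING-KO (adjusted p = 4.64e-05). That of Col1a1 was 6.95 ± 0.79 (edgeR adjusted p = 3.04e-05) and 5.94 ± 0.76 (adjusted p = 7.49e-05), and that of Col1a2 6.51 ± 0.53 and 5.51 ± 0.51. Col18a1 followed with 5.99 ± 0.56 and 5.14 ± 0.55. Col10a1 was called in both (edgeR adjusted p = 0.000214 in cGAS-KO and 1.18e-05 in STING-KO). Of the basement membrane chains, Col4a1 rose by 3.06 ± 0.32 and 2.64 ± 0.32, Col4a2 by 2.00 ± 0.24 and 1.68 ± 0.24, and Col4a6, among the 6 largest rises in cGAS-KO, by 4.66 ± 0.44 there. Col8a2 rose by 3.84 ± 0.31 in STING-KO.

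Type VI chains rose too. Col6a1 changed by 2.28 ± 0.34 in cGAS-KO (edgeR adjusted p = 0.0002), Col6a2 by 3.29 ± 0.28 and Col6a3 by 3.71 ± 0.45. In STING-KO Col6a2 rose by 1.62 ± 0.27 and Col6a3 by 2.72 ± 0.44. Col6a1 passed the threshold narrowly there (0.86 ± 0.33, edgeR adjusted p = 0.0494) and did not without the first WT library (0.35), the first (0.14) or the second STING-KO library (0.142), or under 5 other settings (adjusted p up to 0.158). The falls were those of the chains known from neurons. Col25a1 fell by 2.64 on the log2 scale in cGAS-KO (-2.64 ± 0.20, edgeR adjusted p = 1.33e-06) and by 2.19 in STING-KO (-2.19 ± 0.20). Col19a1 fell by 1.94 (-1.94 ± 0.43, edgeR adjusted p = 0.00268) and by 2.42 (-2.42 ± 0.44). Pan-neuronal markers fell too, 6 of 6 in each comparison, beside 22.4% and 22.6% of all genes called lower. The part of neurons in this was not tested.

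Of the 38 calls in cGAS-KO, 30 held in each of the 4 fits without 1 library and in the other settings, and of the 31 in STING-KO 25 did. None of the 6 largest rises in either comparison was lost.

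Between the labelled knockouts at 7 days 2 chains passed. Col6a2 (1.68 ± 0.26, edgeR adjusted p = 0.0401) and Col26a1 (1.56 ± 0.22, adjusted p = 0.032) were higher in cGAS-KO, and no chain was lower, against 0.0858% of all genes higher and 0.0757% lower. With no adjustment 16 of 44 chains and 1758 of all 19822 genes had a p below 0.05, and DESeq2 called 5 higher and 1 lower. Both calls ended without the first cGAS-KO library (adjusted p = 0.297 for Col6a2 and 0.246 for Col26a1) or the second STING-KO library (0.175 and 0.118), and that of Col6a2 without the first STING-KO library (0.132). In a fit of only the libraries compared, or in the fit without the 7-day WT libraries, neither was called. The type I and III chains were higher in both cGAS-KO libraries without passing: Col1a1 differed by 1.02 ± 0.60 (edgeR adjusted p = 0.734), Col1a2 by 1.01 ± 0.41 and Col3a1 by 1.02 ± 0.65. Col4a1 and Col4a2 differed by 0.42 ± 0.30 and 0.32 ± 0.23, Col6a1 by 1.42 ± 0.33 and Col6a3 by 0.99 ± 0.39. Col10a1, named here after its values were seen, was lower in cGAS-KO in both libraries without passing (-3.43 ± 0.62, edgeR adjusted p = 0.0786). It passed without the second STING-KO library (-4.18, edgeR adjusted p = 0.00305).

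At 14 days no chain differed between cGAS-KO and WT by edgeR, while 0% of all genes were higher and 0.0303% lower. DESeq2 and the other settings also called no chain, and 9 of 44 chains and 2185 of all 19822 genes had an unadjusted p below 0.05. The median log2 change of the chains was -0.14, beside -0.01 over all genes. The chains with the smallest p were Col4a4 (-0.83 ± 0.30, edgeR adjusted p = 0.357), Col28a1 (-1.76 ± 0.69, adjusted p = 0.393) and Col9a3 (0.66 ± 0.26, adjusted p = 0.396). Of the main chains, Col1a1 differed by -0.90 ± 0.63, Col1a2 by -1.07 ± 0.43, Col3a1 by -1.70 ± 0.71, Col4a1 by -0.43 ± 0.30, Col4a2 by -0.28 ± 0.24, Col6a1 by 0.61 ± 0.32, Col6a2 by 0.30 ± 0.26 and Col6a3 by 0.05 ± 0.45. The 2 WT libraries lay far apart for the type I and III chains, as given above. Without the second WT library the differences of Col1a1 and Col3a1 changed sign, to 0.72 and 0.43, and that of Col6a3 was at -0.59 without the first.

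STING-KO at 14 days was lower than WT for many chains. 21 of the 44 were lower and 1 higher, against 17.4% and 16.5% of all genes, and the median log2 change was -1.10 beside -0.03 over all genes. Lower were 9 of 11 fibrillar chains, 5 of 6 type IV chains, both multiplexins, 4 of 9 FACIT chains and 1 of 4 transmembrane chains. None of the 6 type VI chains and none of the hexagonal network chains passed. The largest falls were those of Col5a1 (-3.44 ± 0.48, edgeR adjusted p = 0.000392), Col3a1 (-3.33 ± 0.82, adjusted p = 0.00958) and Col12a1 (-2.91 ± 0.48, adjusted p = 0.00104). Col1a1 (-2.78 ± 0.71), Col4a6 (-2.43 ± 0.45) and Col18a1 (-2.20 ± 0.56) came next. Col1a2 fell by 2.17 on the log2 scale (-2.17 ± 0.46), Col4a1 by 1.35 (-1.35 ± 0.31) and Col4a2 by 0.98 (-0.98 ± 0.24). Col25a1 rose by 1.23 ± 0.20 (edgeR adjusted p = 0.000698). The differences of Col6a1 (0.64 ± 0.32), Col6a2 (-0.59 ± 0.27) and Col6a3 (-1.48 ± 0.53) did not pass. That of Col6a3 did without the first WT library (-2.12, edgeR adjusted p = 0.00354).

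Most calls of this comparison ended in some fit that left out a single library. Without the second WT library, the one with more type I and III collagen, the edgeR adjusted p was 0.175 for Col1a1, 0.158 for Col3a1, 0.135 for Col18a1, 0.0563 for Col4a1 and 0.0647 for Col4a2. There the log2 changes were -1.17 for Col1a1, -1.20 for Col3a1 and -1.25 for Col1a2, which was still called. Without the first STING-KO library it was 0.122, 0.113, 0.129, 0.067 and 0.0879 in the same order, and 0.0665 for Col1a2, and 11 chains in all were called. In a fit of only the libraries compared, or with no filter on low counts, Col1a1, Col3a1 and Col18a1 also missed the threshold. The calls of Col5a1, Col12a1, Col4a6 and Col25a1 held in every fit. In the same libraries the sums of 8 macrophage and microglia markers were 1471 and 1569.7 CPM in WT and 231 and 489 CPM in STING-KO, and those of striatal projection neuron markers 927 and 697 CPM and 5351 and 5907 CPM, and their part in these falls was not tested.

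**Figure D4:**
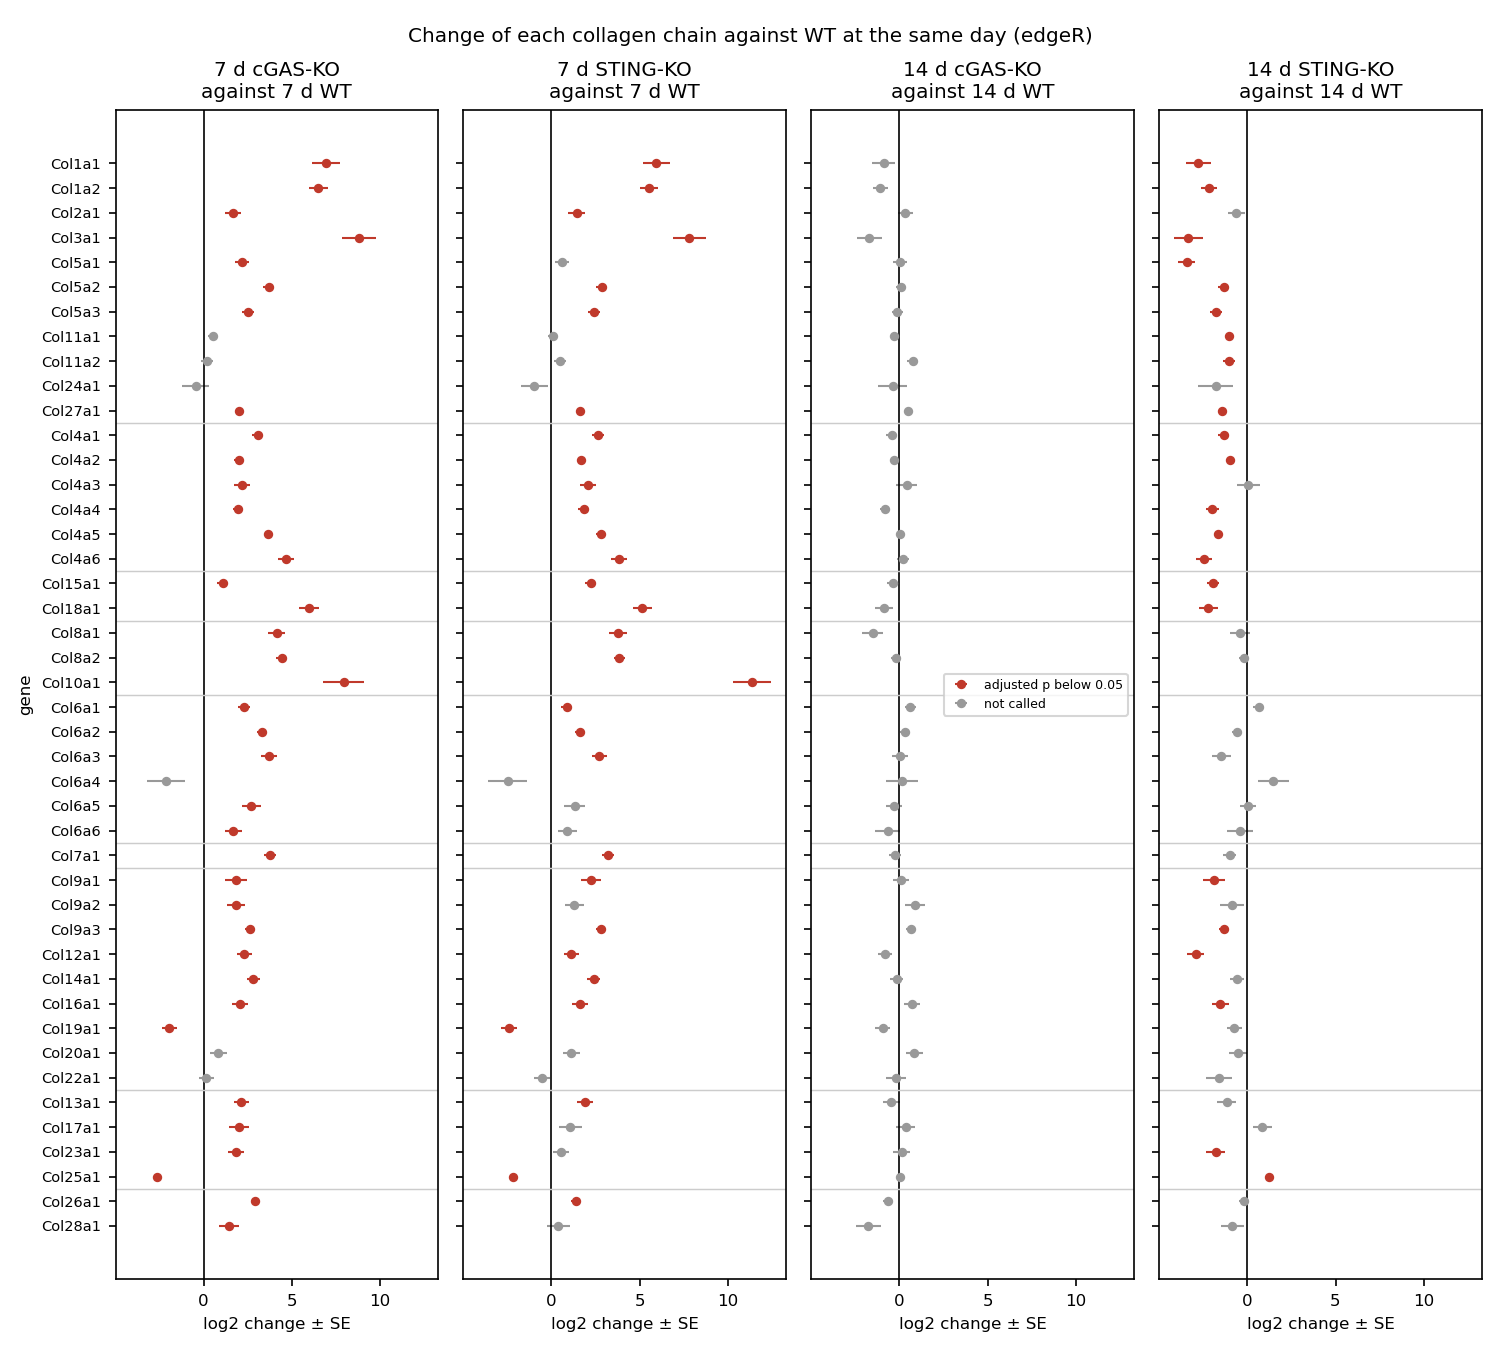
Log2 change ± SE (edgeR) of each of the 44 chains against WT of the same day, 1 panel per comparison, with chains at an adjusted p below 0.05 in red. Red points lie mostly right of 0 in the 7-day panels (36 and 29 chains), none is red for cGAS-KO at 14 days, and 21 lie left of 0 for STING-KO at 14 days. Col10a1 could not be placed in the 14-day panels, where it had at most 1 count.

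Between the labelled knockouts at 14 days, 20 chains were higher in cGAS-KO than in STING-KO and 1 lower, against 18.2% and 17.7% of all genes, with a median of 1.24 beside 0.04. Col5a1 (3.47 ± 0.47, edgeR adjusted p = 0.000478), Col4a6 (2.63 ± 0.45), Col16a1 (2.25 ± 0.49), Col12a1 (2.09 ± 0.48), Col9a1 (2.00 ± 0.61) and Col9a3 (1.96 ± 0.28) differed most, and Col25a1 was lower (-1.20 ± 0.19). Type I and III chains were not called: Col1a1 differed by 1.88 ± 0.71 (edgeR adjusted p = 0.0589), Col1a2 by 1.10 ± 0.46 (0.0832) and Col3a1 by 1.63 ± 0.84 (0.153). Without the second STING-KO library Col1a1 was called (3.28, edgeR adjusted p = 0.0402). Col4a1 (0.92 ± 0.31), Col4a2 (0.70 ± 0.24), Col6a2 (0.89 ± 0.26) and Col6a3 (1.53 ± 0.52) passed narrowly, while Col6a1 was at -0.02 ± 0.32. Of all 21 calls, 12 ended without at least 1 library. Without the first STING-KO library 9 chains were called and without the first cGAS-KO library 11. In the first of these fits the edgeR adjusted p was 0.273 for Col4a1, 0.243 for Col4a2, 0.15 for Col6a2, 0.282 for Col6a3, 0.0742 for Col12a1 and 0.157 for Col9a1. In the second it was 0.205, 0.274, 0.108, 0.189, 0.0616 and 0.104. Without the second cGAS-KO library Col4a1 (0.0613), Col6a2 (0.0553) and Col6a3 (0.0556) also missed the threshold, and without the second STING-KO library Col4a2 (0.0527), Col6a3 (0.0535) and Col12a1 (0.0527) did.

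From 7 to 14 days most called chains rose in WT and fell in the labelled knockouts. In WT 15 chains were higher at 14 days and 3 lower, against 24.1% and 19.7% of all genes. This comparison uses the 7-day WT libraries, which stood apart in their markers. As many of its calls ended in some fit that left out a single library as held in all such fits. Col3a1 rose by 4.17 ± 0.87 (edgeR adjusted p = 0.00273), Col4a6 by 2.80 ± 0.46, Col6a5 by 2.65 ± 0.54, Col1a2 by 2.27 ± 0.46, Col1a1 by 2.11 ± 0.67 and Col8a2 by 2.05 ± 0.33. Col6a1 rose by 1.75 ± 0.33 and Col6a2 by 1.02 ± 0.27, while Col4a1 (0.04 ± 0.30), Col4a2 (-0.57 ± 0.24) and Col6a3 (0.25 ± 0.46) did not pass. Col25a1 fell by 2.29 on the log2 scale (-2.29 ± 0.20), Col22a1 by 1.43 (-1.43 ± 0.49) and Col26a1 by 0.84 (-0.84 ± 0.26). Without the second 14-day library the rise of Col3a1 was 1.99 (edgeR adjusted p = 0.0285) and that of Col1a2 1.29 (adjusted p = 0.0248). Without the first 14-day library that of Col6a5 was 1.75 (edgeR adjusted p = 0.0251). Without the second 7-day library that of Col6a1 was 2.48. The rise of Col1a1 (adjusted p = 0.0253) was not called without the second 14-day library (0.582, log2 change 0.45), the first 7-day (0.118) or the second 7-day library (0.123). That of Col6a2 was not without the first 7-day (0.103) or the second 14-day library (0.102). Col22a1 was not called without the first 14-day library (0.213) or either 7-day library (0.14 and 0.067), nor Col26a1 without the first 7-day (0.132) or either 14-day library (0.093 and 0.0605). Without the first 7-day library 11 chains were called in all.

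In cGAS-KO 31 of 44 chains were lower at 14 than at 7 days and 0 higher, against 17% and 13.4% of all genes. In STING-KO 36 were lower and 4 higher, against 29.5% and 27.4%. The medians were -1.75 and -2.47, beside -0.01 and -0.04 over all genes. The log2 change of Col3a1 was -6.37 ± 0.83 in cGAS-KO (edgeR adjusted p = 0.000314) and -6.98 ± 0.89 in STING-KO (adjusted p = 5.96e-05). The changes of Col1a1 were -5.74 ± 0.74 and -6.60 ± 0.80, those of Col1a2 -5.32 ± 0.50 and -5.41 ± 0.51, and those of Col18a1 -5.57 ± 0.55 and -6.05 ± 0.59. Col10a1 fell from 978 counts to 1 in cGAS-KO, a ratio of 1184 (exact 95% interval 212 to 46825, counting error only). In STING-KO it was at least 1604-fold lower at 14 days, set against a limit of 3 counts per library. The second 7-day STING-KO library alone gives at least 537-fold and the first alone at least 2671-fold. Col8a1 in cGAS-KO changed by -4.88 ± 0.52 and Col5a1 in STING-KO by -4.25 ± 0.48. The basement membrane pair also fell, with Col4a1 at -3.44 ± 0.33 and -3.94 ± 0.34 and Col4a2 at -2.85 ± 0.25 and -3.23 ± 0.26.

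Type VI again differed by chain. Col6a2 (-1.97 ± 0.26 in cGAS-KO and -1.18 ± 0.26 in STING-KO) and Col6a3 (-3.41 ± 0.43 and -3.95 ± 0.50) fell in both, while Col6a1 was at 0.09 ± 0.32 in cGAS-KO without passing and rose in STING-KO (1.53 ± 0.33, edgeR adjusted p = 0.00212). The other rises in STING-KO were those of Col6a4 (3.53 ± 1.07), Col6a5 (1.35 ± 0.48) and Col25a1 (1.13 ± 0.20, edgeR adjusted p = 0.000417). Col6a4 (adjusted p = 0.0155) was not called without the second 14-day library (0.452) or either 7-day library (0.0533 and 0.109). Col6a5 (adjusted p = 0.033) was not without the first 7-day (0.2) or the first 14-day library (0.177).

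The difference between the days was itself tested. The cGAS-KO effect against WT was lower at 14 than at 7 days for 27 chains and higher for 1, against 21% and 15.7% of all genes. The STING-KO effect was lower for 31 and higher for 3, against 27.6% and 24.3%. These tests use the WT libraries that the comparisons above use. For cGAS-KO the differences were -10.54 ± 1.18 for Col3a1 (edgeR adjusted p = 5.23e-05), -7.85 ± 0.98 for Col1a1, -7.59 ± 0.67 for Col1a2 and -6.86 ± 0.73 for Col18a1, and the one above 0 was Col25a1 (2.66 ± 0.28). For STING-KO they were -11.15 ± 1.23 for Col3a1 (edgeR adjusted p = 2.09e-05), -8.71 ± 1.03 for Col1a1, -7.68 ± 0.68 for Col1a2 and -7.35 ± 0.77 for Col18a1. Above 0 were Col6a4 (3.96 ± 1.43), Col25a1 (3.42 ± 0.28) and Col19a1 (1.69 ± 0.62). Col4a1 differed by -3.49 ± 0.44 and -3.98 ± 0.44 and Col4a2 by -2.28 ± 0.34 and -2.66 ± 0.34. Col6a1 was called for cGAS-KO (-1.66 ± 0.46, edgeR adjusted p = 0.0146) and not for STING-KO (-0.22 ± 0.46, adjusted p = 0.71). Its call ended without the first 7-day cGAS-KO (0.0644), the second 14-day WT (0.0618) or the second 14-day cGAS-KO library (0.0558). The Col6a4 difference (adjusted p = 0.0367) missed the threshold without each of 6 of the 8 libraries it rests on, with an edgeR adjusted p from 0.0651 without the first 7-day STING-KO library to 0.379 (log2 difference 1.57) without the second 14-day STING-KO library. That of Col19a1 (0.039) was at 0.151 without the second 7-day WT, 0.124 without the second 7-day STING-KO, 0.125 without the first 14-day WT, 0.0749 without the first 14-day STING-KO and 0.0991 without the second 14-day STING-KO library.

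**Figure D5:**
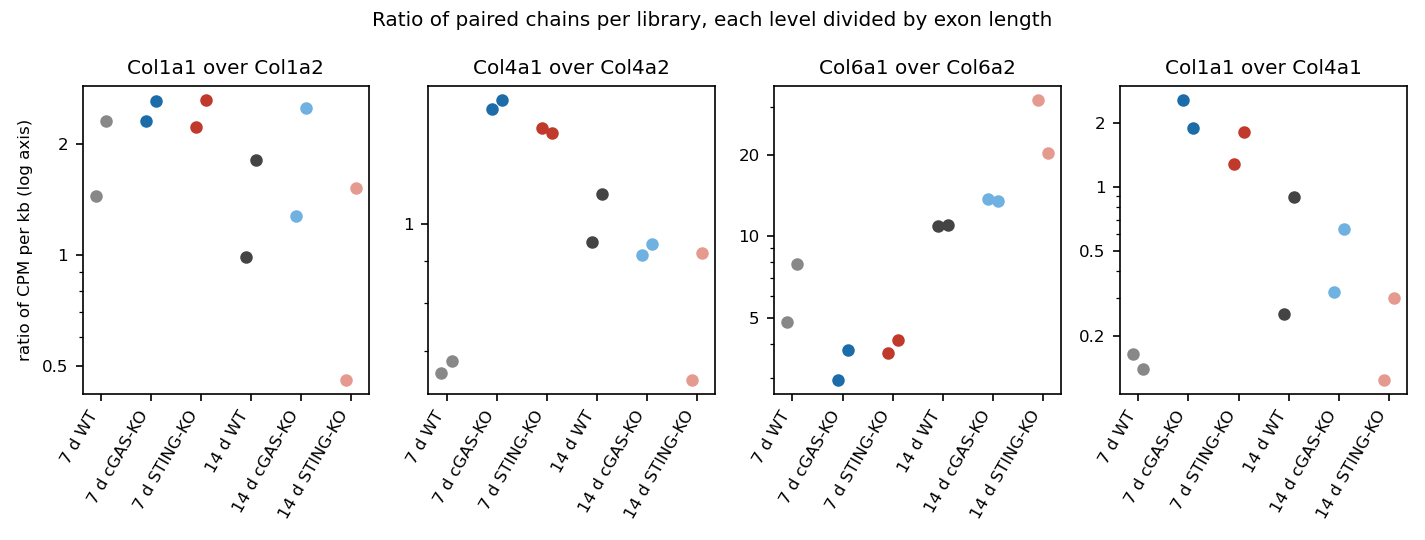
Ratio (log axis) of 4 chain pairs per library, each level in CPM per kb of exon, by day and genotype label. Col4a1 over Col4a2 is highest in the 7-day labelled knockouts (1.29 to 1.42), and Col6a1 over Col6a2 is lowest there (2.95 to 4.13) and highest in 14-day STING-KO (20.3 and 31.8).

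Chains that share a molecule did not keep a fixed ratio. Per kb of exon, the ratio of Col4a1 to Col4a2 was 0.658 and 0.68 in 7-day WT, 1.38 and 1.42 in 7-day cGAS-KO, 1.31 and 1.29 in 7-day STING-KO, 0.949 and 1.09 in 14-day WT, 0.916 and 0.944 in 14-day cGAS-KO, and 0.645 and 0.92 in 14-day STING-KO libraries. The 7-day labelled knockouts were thus above the other 8 libraries. In those 8, Col4a2 exceeded Col4a1 by this length in all but the second 14-day WT library (1.09). By the longest transcript this order would not hold in several of them. That length is 6615 bases for Col4a1, against 7464 by all exons, and 6450 against 6619 for Col4a2. The ratio of Col6a1 to Col6a2 was 4.80 and 7.92 in 7-day WT, 2.95 and 3.79 in 7-day cGAS-KO, 3.70 and 4.13 in 7-day STING-KO, 10.9 and 10.99 in 14-day WT, 13.7 and 13.5 in 14-day cGAS-KO, and 31.8 and 20.3 in 14-day STING-KO libraries, so that all 14-day libraries lay above all 7-day libraries. Col1a1 to Col1a2 ran from 0.460 in a 14-day STING-KO library to 2.64 in a 7-day STING-KO library, with a median of 2.02 and overlapping groups. That median depends on the length used. The means over 12 libraries were 51.5 and 21.8 CPM per kb by all exons, but 57.0 and 50.6 by the longest transcript. Col1a1 to Col4a1, fibrillar against basement membrane collagen, was 1.28 to 2.55 in the 7-day labelled knockouts and 0.124 to 0.891 in the other 8 libraries. The height of each ratio depends on how a gene's length is counted, its differences between libraries do not. No test was run on the ratios.

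Genes that make, process and bind collagen were counted from fixed lists. At 7 days their counts stand beside 27.8% of all genes higher and 22.4% lower in cGAS-KO, and 26.3% and 22.6% in STING-KO. Of 19 genes of collagen biosynthesis in the endoplasmic reticulum, 13 were higher and 0 lower in 7-day cGAS-KO than in WT (median 0.96), and 11 higher and 1 lower in 7-day STING-KO (0.82). The chaperone Serpinh1 (Hsp47) had 11.9 and 14.1 CPM in 7-day WT, 354 and 277 in 7-day cGAS-KO, 144 and 118 in 7-day STING-KO, 39.0 and 50.5 in 14-day WT, 42.5 and 50.3 in 14-day cGAS-KO, and 16.3 and 14.0 CPM in 14-day STING-KO libraries. P4hb, a subunit of the prolyl hydroxylase, ran from 90.3 CPM in 7-day WT to 489 CPM in 7-day STING-KO, and the lysyl hydroxylase Plod1 from 22.4 CPM in 14-day STING-KO to 221 CPM in 7-day STING-KO. These enzymes were highest in the same 4 libraries as the chains. Of 14 genes of procollagen processing and crosslinking, 9 were higher and 1 lower in 7-day cGAS-KO, and 8 and 1 in 7-day STING-KO. The collagen-binding glycoprotein Sparc rose by 1.497 ± 0.21 and 1.65 ± 0.21, while Bmp1, the procollagen C-proteinase, did not pass (0.36 ± 0.18 and 0.29 ± 0.18). The crosslinking enzyme Lox was at 0.168 and 0.409 CPM in 7-day WT, 154 and 106 CPM in 7-day cGAS-KO and 78.1 and 32.0 CPM in 7-day STING-KO.

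Collagen-binding proteoglycans were higher in 6 of 6 cases in 7-day cGAS-KO and 5 of 6 in STING-KO. Bgn, biglycan, had 11.72 and 10.3 CPM in 7-day WT, 562 and 334 in 7-day cGAS-KO, 306 and 197 in 7-day STING-KO, 58.2 and 88.3 in 14-day WT, 61.0 and 53.1 in 14-day cGAS-KO, and 13.9 and 21.9 CPM in 14-day STING-KO libraries, and the changes of Dcn, decorin, were 3.52 ± 0.49 and 2.08 ± 0.47 and those of Prelp 1.80 ± 0.20 and 1.01 ± 0.20. Dcn also belongs to the fibroblast markers. Of the collagen receptors tested, 10 of 10 and 8 of 10 were higher, among them the integrin subunit Itgb1 (2.74 ± 0.16 and 2.67 ± 0.16), the kinase receptor Ddr1 (1.502 ± 0.34 and 1.61 ± 0.35) and Adgrg1, a receptor of type III collagen (0.64 ± 0.19 and 0.74 ± 0.19). All 5 collagenases and gelatinases were higher in both, with Mmp14 at 3.67 ± 0.30 and 3.42 ± 0.30 and Mmp2 at 4.85 ± 0.29 and 4.08 ± 0.29. Mmp13, a collagenase of fibrillar collagen, had 0 counts in 7-day WT, 2.47 and 1.49 CPM in 7-day cGAS-KO and 54.7 and 23.6 CPM in 7-day STING-KO, an order that Col10a1 shared. Of 15 other basement membrane genes 13 and 10 were higher and 0 lower, with Lamb2 (2.15 ± 0.25 and 1.70 ± 0.25) and Lamc1 (2.02 ± 0.18 and 1.45 ± 0.17) among them and the most abundant, Agrn, not called (-0.35 ± 0.23 and -0.48 ± 0.23). Of 6 TGF-beta ligands and receptors, known inducers of collagen genes, 5 were higher and 1 lower in cGAS-KO and 4 and 1 in STING-KO. Tgfb1 was at 6.51 and 6.08 CPM in 7-day WT and between 143 and 189 CPM in the 7-day labelled knockouts, and its receptors rose with 2.12 ± 0.16 and 2.42 ± 0.16 for Tgfbr1 and 3.78 ± 0.26 and 3.71 ± 0.26 for Tgfbr2.

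At 14 days these lists gave few calls for cGAS-KO, 1 collagenase lower and 0 genes of the other 6 lists. In STING-KO 10 of 19 biosynthesis genes were lower and 0 higher, 7 of 14 processing genes lower and 1 higher, 4 of 6 proteoglycans lower, 7 of 10 receptors lower and 1 higher, 3 of 5 collagenases lower, 4 of 15 basement membrane genes lower and 1 higher, and 4 of 6 TGF-beta genes lower and 1 higher. Serpinh1 (-1.56 ± 0.20, edgeR adjusted p = 0.000209), Bgn (-2.04 ± 0.33), Mmp2 (-1.87 ± 0.27) and Tgfb1 (-2.19 ± 0.28) fell, while Lamc1 (-0.07 ± 0.17) and Agrn (-0.30 ± 0.23) were not called. These shares stand beside 17.4% of all genes lower and 16.5% higher.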

How the data were processed

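PolyA+ RNA of 12 striatum libraries was analysed. The deposited files hold raw read counts per gene and library. HISAT2, featureCounts and build mm10 are named for the authors' work, per the submitters' processing notes. Tool versions, gene annotation and strandedness of the counting are not given in the sources used here. Ensembl IDs were named with GENCODE M21 (54495 of 54532 had a symbol). Groups come from the titles, and the labels name no batch.

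Counts were tested with edgeR 4.0.16 (R 4.3.3; quasi-likelihood, TMM scaling) over all 6 groups in 1 fit with 6 residual degrees of freedom and a common biological coefficient of variation of 0.194, after filterByExpr (minimum count 10, minimum total 15). Adjusted p-values are Benjamini-Hochberg over 19822 genes, with a threshold of 0.05. The SE is the log2 change divided by the square root of F. A count of 0 allows up to 3 counts, and intervals cover counting error only. The fitting was tested on simulated data. Figures were drawn with matplotlib 3.10.9.

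The genes named are the 6 largest rises and falls among the calls of each comparison, and up to 4 each way for the differences between days. Where nothing was called, the 3 smallest p are named. Always named are Col1a1, Col1a2, Col3a1, Col4a1, Col4a2, Col6a1, Col6a2 and Col6a3. The 3 most abundant genes of each related list are named too. Other genes, given by level only, were chosen after their values were seen. The members and lists were chosen with earlier results of these data known. Alternatives were DESeq2 1.42.0, its size factors, other count filters, other fits, a replicate block and leaving out each library.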

Additional observations from a re-analysis of the deposited data

Results flagged for a closer look

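The effect of each genotype label on collagen chains differed between the days by edgeR's test of the difference itself. For cGAS-KO, the effect against WT was lower at 14 than at 7 days for 27 chains and higher for 1. Of all genes, 21% were lower and 15.7% higher in this test. The differences on the log2 scale were -10.54 for Col3a1, -7.85 for Col1a1, -7.59 for Col1a2 and -6.86 for Col18a1, with Col25a1 at 2.66. For STING-KO, the effect was lower for 31 chains and higher for 3, against 27.6% and 24.3% of all genes. There Col3a1 was at -11.15, Col1a1 at -8.71, Col1a2 at -7.68 and Col18a1 at -7.35, with Col6a4 at 3.96, Col25a1 at 3.42 and Col19a1 at 1.69. In edgeR fits without 1 library, the Col6a4 call ended without each of 6 of the 8 libraries it rests on, most without the second 14-day STING-KO library (1.57, adjusted p = 0.379). The Col19a1 call ended without each of 5, among them the second 7-day WT library (edgeR adjusted p = 0.151). Both sets of differences use the 7-day WT libraries, and the STING-KO set also uses the 14-day STING-KO libraries. Both of these groups stood apart from the others in their markers, and their part in the differences was not tested.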

How the results depend on the processing

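Of 3822 gene-level alternatives, 3500 kept their direction and their side of the threshold, 290 fell short of it, 15 passed it newly and 17 changed sign, all 17 in differences that had not passed. Leaving out 1 library, the difference between cGAS-KO and WT at 14 days ran from -1.65 to 0.72 for Col1a1 and -2.54 to 0.43 for Col3a1, both above 0 only without the second WT library, and from -0.59 to 1.23 for Col6a3, below 0 without the first WT library and without the first cGAS-KO library (-0.29). That of Col6a1 ran from -0.19 to 0.17 between the labelled knockouts at 14 days (0.087 without the second cGAS-KO library), from -0.049 to 0.28 in cGAS-KO over time (-0.043 without the first 14-day library), and from -0.96 to 0.28 for the STING-KO effect at 14 minus 7 days (0.11 without the second 14-day WT library). In WT over time Col6a3 ran from -0.98 to 0.87 and Col4a1 from -0.30 to 0.28 (-0.097 without the first 7-day library). There Col4a1 was also at -0.0031 with DESeq2's size factors and in DESeq2, -0.0091 with no filter and -0.0023 with a stricter filter. Between the labelled knockouts at 7 days, where edgeR called 2 chains, DESeq2 called 6, fits of only the libraries compared, of the legacy quasi-likelihood and without the 7-day WT libraries called 0, the fit without the 14-day STING-KO libraries called 1, and leaving out 1 library gave 0 to 2. Leaving out 1 library gave 11 to 20 chains for STING-KO against WT at 14 days (22 with all), 9 to 16 for cGAS-KO against STING-KO at 14 days (21) and 11 to 15 for WT over time (18). The cause was not tested. The correlation of the deviations of same-numbered libraries ran from -0.12 to 0.24 over 15 pairs of groups, above 0.1 in 4. These values cannot tell whether same-numbered libraries shared a batch or were paired. With the replicate block 38 and 30 chains were called at 7 days for cGAS-KO and STING-KO against WT, 0 and 22 at 14 days, 3 and 21 between the labelled knockouts at 7 and 14 days, 18, 31 and 40 over time in WT, cGAS-KO and STING-KO, and 29 and 33 for the differences between days.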
